A study of Mus musculus with 6 samples.

Results

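The genes described here are 10 members of the chemokine system: the ligands Ccl3, Ccl4, Ccl9 and Cxcl12 and the receptors Cxcr4, Cxcr2, Ccr2, Ccr7, Cx3cr1 and Ccr9. They were taken by gene symbol from a table of 55487 mouse genes, and each symbol matched 1 row. All 10 passed the filter on low counts, which left 15419 genes for testing. Ccr7 and Ccr9 passed it only through the Mmrn1-high libraries. The other 8 reached the level it needs, 0.646 CPM (counts per library total, rescaled), in every library.

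The study profiled bone marrow cells that the labels call long-term haematopoietic stem cells (LT-HSCs), the cells that maintain blood formation for life. The genotype is labelled Mmrn1-GFP type in all samples, so both groups carry it. Its product, multimerin 1, is stored in platelets and made by endothelium. The groups were Mmrn1-low and Mmrn1-high cells, with 3 RNA-seq libraries each. The sources used here do not give the age, sex or treatment of the mice, the surface gate, the design of the reporter allele or the number of mice behind a library. Separate mice or sorts per replicate are not stated either, so each p-value reflects the spread among these 6 libraries, possibly technical.

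Chemokines are small secreted proteins that steer the movement of white blood cells. They bind receptors with 7 membrane-spanning segments that signal through inhibitory G proteins, and the receptor is then silenced by phosphorylation, arrestins and RGS proteins. In bone marrow, CXCL12 from stromal cells holds stem cells and immature granulocytes in place through CXCR4, CXCR2 ligands release neutrophils, and CCR2 ligands release monocytes. CCL3 is also known as an inhibitor of progenitor proliferation. CCR7 and CCR9 take part in the settling of lymphoid progenitors in the thymus.

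The total count per library was between 11595104 and 30909990, and 3 counts corresponded to between 0.0925 and 0.245 scaled CPM. Mmrn1, the gene used to separate the groups, was at 5.65, 5.61 and 5.82 CPM in Mmrn1-low replicates 1 to 3 and at 8.82, 9.80 and 11.5 CPM in Mmrn1-high replicates 1 to 3 (log2 fold change 0.82 ± 0.12 SE, edgeR adjusted p = 4.85e-04). Differences between the groups were widespread: 30.7% of the genes tested were called higher in Mmrn1-high cells and 30.5% lower, at a Benjamini-Hochberg adjusted p under 0.05. These were 4737 and 4701 genes. With library size alone the median log2 fold change shifted by 0.15, and 6201 genes (40.2%) were called higher and 3193 (20.7%) lower, so every direction below is relative to TMM. Of 10 LT-HSC markers, 9 were called higher in Mmrn1-high cells and 0 lower, at a summed level of 409 to 430 CPM in Mmrn1-low and 644 to 681 CPM in Mmrn1-high libraries. Markers of granulocyte progenitors, led by Mpo, Elane and Ctsg, summed to 23340 to 24600 CPM in Mmrn1-low and 3458 to 3531 CPM in Mmrn1-high libraries, and all 8 were called lower in Mmrn1-high cells. Most of the LT-HSC sum was Kit, which progenitors also express, with means of 328.5 CPM (Mmrn1-low) and 395 CPM (Mmrn1-high). More restricted markers were detected at a few CPM: the means were 4.34 and 12.4 CPM for Procr, 1.54 and 4.92 CPM for Slamf1, 2.93 and 9.33 CPM for Fgd5 and 0.775 and 1.27 CPM for Hoxb5, which was not called.

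Of the 10 members, 6 were called higher in Mmrn1-high cells (Ccl3, Ccl4, Ccl9, Cxcr2, Ccr7 and Ccr9), 1 was called lower (Cxcl12), and Cxcr4, Ccr2 and Cx3cr1 were not called. The background for these counts is the 30.7% of all genes called higher and the 30.5% called lower. The median log2 fold change was 0.81 over the members and 0.01 over all genes tested. These counts include Ccr7 and Ccr9, which the filter favoured for being high in 1 group. Among the 8 members at or above the needed level in every library, 4 were called higher and 1 lower with a median of 0.28. Of 13868 genes at or above it in every library, 29.7% were higher and 32.6% lower with a median of −0.02. The groups of libraries did not overlap for 7 members, 6 with Mmrn1-high above, Ccr7 and Ccr9 among them, and 1 with it below. Among all genes tested 67.8% did not overlap, 34.1% with Mmrn1-high above and 33.7% with it below. In bulk RNA, fewer cells of a type and less RNA per cell cannot be told apart, which holds for every difference given here.

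**Figure D1:**
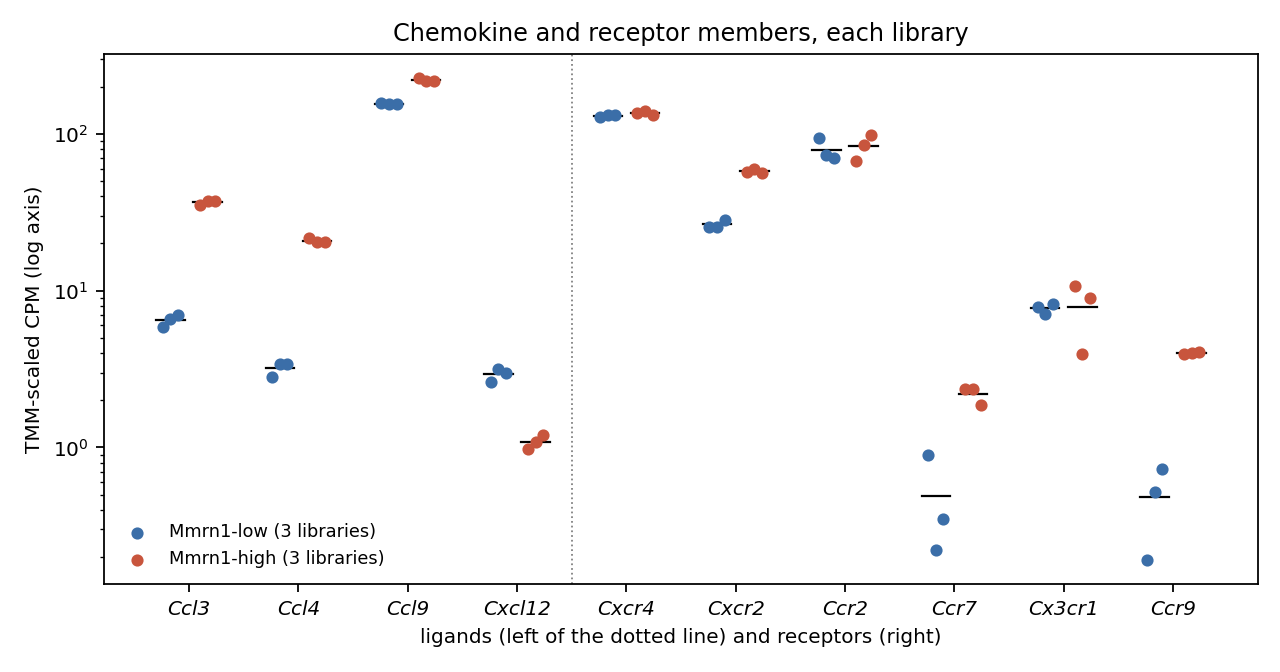
Level of each of the 10 members in every library, in TMM-scaled CPM on a log axis. Blue points are the 3 Mmrn1-low libraries, red points the 3 Mmrn1-high libraries, and the black line is the group's mean. The dotted line separates the 4 ligands from the 6 receptors. The colours do not overlap for Ccl3, Ccl4, Ccl9, Cxcl12, Cxcr2, Ccr7 and Ccr9, and they overlap for Cxcr4, Ccr2 and Cx3cr1.

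The promoters of the gene with the smallest adjusted p among the members, Ccl3, of Cxcl12, which went the other way, and of its receptor Cxcr4, which was not called, are shown to let their base composition be compared. The windows hold 250 bases before the RefSeq start site and the first 50 bases transcribed, in build GRCm38.p6. They are Ccl3 at chr11:83649329-83649628 on the minus strand, Cxcl12 at chr6:117168285-117168584 on the plus strand and Cxcr4 at chr1:128592250-128592549 on the minus strand. Each is written 5′ to 3′ along the gene, and capitals mark CG dinucleotides.
Ccl3: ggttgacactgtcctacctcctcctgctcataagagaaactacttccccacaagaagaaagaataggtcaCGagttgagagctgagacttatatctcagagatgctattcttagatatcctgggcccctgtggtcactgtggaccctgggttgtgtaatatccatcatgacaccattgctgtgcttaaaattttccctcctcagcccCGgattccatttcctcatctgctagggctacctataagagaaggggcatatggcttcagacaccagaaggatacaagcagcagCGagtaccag
Cxcl12: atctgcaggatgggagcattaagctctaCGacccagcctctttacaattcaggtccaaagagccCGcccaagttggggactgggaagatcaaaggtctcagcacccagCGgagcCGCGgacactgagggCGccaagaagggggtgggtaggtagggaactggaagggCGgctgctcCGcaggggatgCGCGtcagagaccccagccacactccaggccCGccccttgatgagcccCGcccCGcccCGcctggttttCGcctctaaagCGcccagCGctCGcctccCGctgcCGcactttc
Cxcr4: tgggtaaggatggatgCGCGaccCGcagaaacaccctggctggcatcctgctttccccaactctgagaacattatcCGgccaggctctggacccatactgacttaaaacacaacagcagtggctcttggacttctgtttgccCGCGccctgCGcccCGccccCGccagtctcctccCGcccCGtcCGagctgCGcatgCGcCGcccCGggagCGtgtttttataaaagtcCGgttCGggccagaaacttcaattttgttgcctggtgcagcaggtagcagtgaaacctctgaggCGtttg
The Ccl3 window held 3 CG dinucleotides and the Cxcl12 and Cxcr4 windows 20 each, against a median of 7 over 32851 such windows. Of the 10 members, 8 matched the RefSeq promoter table, all but Ccl4 and Ccr7. Among the matched members, the called-higher genes had few: 2 in Ccl9, 2 in Cxcr2 and 4 in Ccr9. The members without a call spanned the range, with 1 in Ccr2, 5 in Cx3cr1 and 20 in Cxcr4. Across all tested genes with a window of 5 or fewer CG dinucleotides (855 genes), 48.9% were called higher and 19.5% lower. With more than 5 (7330 genes), 30.9% were called higher and 35.1% lower. Members with few CG dinucleotides thus belong to a class of promoters in which a larger share of all genes was higher.

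Each window was also searched, on both strands, for 3 short motifs. No 2 of them can share more than a few bases. The TATA box motif, TATAAA, occurs in 13.6% of all windows. It was found in Cxcr4, on the gene's own strand 30 bases before the start, and in Ccl9. The GC box motif, CCGCCC, occurs in 35.7% of all windows. It was found 5 times in Cxcl12 and 3 times in Cxcr4 and in no other matched member. A loose form of the AP-1 motif, TGANTCA with any base at N, occurs in 7.81% of all windows. It was found among the matched members only in Ccl9, 53 bases before the start, where it reads TGAATCA. This is a match to the loose form, and a stricter AP-1 motif was not searched. The Ccl3 window held none of the 3.

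The neighbouring genes Ccl3 and Ccl4 had the largest fold changes among the ligands. They encode macrophage inflammatory proteins that attract white blood cells, and CCL3 binds CCR1. Ccl3 (ENSMUSG00000000982, GRCm38 chr11:83647844-83649355, minus strand) was at 5.90, 6.57 and 7.04 CPM in Mmrn1-low replicates 1 to 3 and at 35.1, 37.4 and 37.3 CPM in Mmrn1-high replicates 1 to 3. The groups lay far apart and each was narrow. The mean went from 6.50 ± 0.571 to 36.6 ± 1.28 CPM (SD, n = 3), 5.60-fold higher. This was a log2 fold change of 2.49 ± 0.08 SE (edgeR adjusted p = 1.45e-07). Leaving out each library in turn gave log2 fold changes of 2.43 to 2.56.

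Ccl4 (ENSMUSG00000018930, chr11:83662584-83664683, plus strand) was at 2.79, 3.39 and 3.38 CPM in the Mmrn1-low and at 21.6, 20.4 and 20.4 CPM in the Mmrn1-high libraries. No library of one group came near the other group. Its mean went from 3.19 ± 0.343 to 20.8 ± 0.683 CPM (SD, n = 3), 6.47-fold higher. On the log2 scale the change was 2.69 ± 0.10 SE (edgeR adjusted p = 2.59e-07). Per kilobase of exon, Ccl3 was above Ccl4 in every library, at a ratio of 1.76 ± 0.0823 in Mmrn1-low and 1.52 ± 0.101 in Mmrn1-high cells (SD, n = 3). The Mmrn1-high ratios, 1.40, 1.58 and 1.58, all lay below the Mmrn1-low ratios, 1.82, 1.67 and 1.79. The coding sequences of both genes were 66.7% identical, with no shared run longer than 9 bases.

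Immediate early genes, which cells transcribe within minutes of a stimulus and which include Jun, Fos and Zfp36, were higher in the same libraries. Of 18 tested, 16 were called higher and 0 lower, and their summed level was 1857 to 1987 CPM in Mmrn1-low and 5485 to 5574 CPM in Mmrn1-high libraries. Egr2 had no count in any library, and Egr3, counted as higher, passed the filter only through the Mmrn1-high libraries. The part of this difference in that of Ccl3 and Ccl4 was not tested.

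Ccl9 encodes a ligand of CCR1 made by mouse myeloid cells, and it was the most abundant of the 4 ligands per kilobase of exon. Ccl9 (ENSMUSG00000019122, chr11:83572919-83578636, minus strand) was at 157, 154.5 and 156 CPM in the Mmrn1-low and at 226.5, 216 and 218 CPM in the Mmrn1-high libraries. The spread within each group was small beside the distance between them. The mean went from 156 ± 1.40 to 220.2 ± 5.57 CPM (SD, n = 3), 1.41-fold higher. The log2 fold change was 0.50 ± 0.03 SE (edgeR adjusted p = 3.39e-06). Its neighbour Ccl6, also a myeloid CC chemokine, went from 13.4 ± 1.19 to 17.6 ± 1.22 CPM (SD, n = 3; log2 fold change 0.39 ± 0.09 SE, edgeR adjusted p = 0.00707). The ratio of Ccl9 to Ccl6 per kilobase of exon was 6.92 ± 0.697 in Mmrn1-low and 7.43 ± 0.696 in Mmrn1-high cells, and the ranges overlapped.

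Cxcl12, the marrow retention factor, was the one member called lower. Cxcl12 (ENSMUSG00000061353, chr6:117168535-117181367, plus strand) was at 2.60, 3.17 and 3.00 CPM in the Mmrn1-low and at 0.980, 1.08 and 1.21 CPM in the Mmrn1-high libraries. These rest on 41, 43 and 86 reads and on 12, 35 and 18 reads. The groups did not overlap. The mean fell from 2.92 ± 0.292 to 1.09 ± 0.113 CPM (SD, n = 3). This was a log2 fold change of −1.42 ± 0.18 SE (edgeR adjusted p = 2.14e-04). At this level Cxcl12 was left out by the filter of 5 CPM and by the FPKM filter, so neither tests it.

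Stromal cells are the main source of CXCL12 in marrow. Of 11 stromal markers 6 could be tested, 3 called higher and 3 lower, and their summed level was 57.9 to 61.5 CPM in Mmrn1-low and 140 to 149 CPM in Mmrn1-high libraries. Most of that sum was Pdgfrb, which had means of 44.1 CPM (Mmrn1-low) and 130.5 CPM (Mmrn1-high). The markers called lower, in the direction of Cxcl12, were the collagen genes Col1a1 (log2 fold change −1.56 ± 0.26 SE) and Col1a2 (−0.88 ± 0.16 SE) and the lipase gene Lpl (−1.24 ± 0.14 SE). Bgn and Sparc were called higher. Lepr and Kitl, which define the stromal cells richest in Cxcl12, were too low to test, with means of 0.116 and 0.307 CPM (Mmrn1-low) and of 0.0817 and 0.0478 CPM (Mmrn1-high). Tissue macrophage markers fell in Mmrn1-high cells, 10 of 10 called lower, with a summed level of 172 to 176 CPM in Mmrn1-low and 31.4 to 32.2 CPM in Mmrn1-high libraries. Col1a1 and the macrophage genes C1qb, Cd5l and Mertk passed the filter only through the Mmrn1-low libraries. The part of either list in the Cxcl12 difference was not tested.

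Cxcr4, the receptor of CXCL12, was the most abundant member per kilobase of exon in both groups. Cxcr4 (ENSMUSG00000045382, chr1:128588199-128592293, minus strand) was at 128.6, 131 and 132.5 CPM in the Mmrn1-low and at 136.5, 139.9 and 132.3 CPM in the Mmrn1-high libraries. Mmrn1-high replicate 3 lay within the Mmrn1-low range. The means were 131 ± 1.96 CPM (Mmrn1-low) and 136 ± 3.80 CPM (Mmrn1-high; SD, n = 3). On the log2 scale the change was 0.06 ± 0.03 SE (edgeR adjusted p = 0.163). This absence of a call depends on the scaling. With library size alone the log2 fold change was 0.21 with an adjusted p of 0.00103, and over all alternatives the adjusted p ran from 0.00103 to 0.599, with a log2 fold change of 0.04 to 0.21. Any difference in Cxcr4 was therefore small under every setting run. The ratio of Cxcr4 to Cxcl12 per kilobase was 204 ± 18.6 in Mmrn1-low and 571 ± 68.1 in Mmrn1-high cells (SD, n = 3).

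Cxcr2 is the receptor through which neutrophils answer CXCL1 and CXCL2. Cxcr2 (ENSMUSG00000026180, chr1:74153989-74161246, plus strand) was at 25.6, 25.5 and 28.2 CPM in the Mmrn1-low and at 56.95, 60.1 and 56.3 CPM in the Mmrn1-high libraries. The groups did not overlap. The mean rose from 26.5 ± 1.50 to 57.8 ± 2.01 CPM (SD, n = 3), 2.18-fold higher. The log2 fold change was 1.13 ± 0.06 SE (edgeR adjusted p = 1.66e-06). Its paralog Cxcr1, also a neutrophil receptor, was far lower per kilobase, with a ratio of Cxcr2 to Cxcr1 of 28.9 ± 10.4 in Mmrn1-low and 16.2 ± 2.74 in Mmrn1-high cells. Markers of maturing neutrophils moved with Cxcr2: 9 of 10 were called higher and 1 lower (Csf3r), and their summed level was 2968 to 3104 CPM in Mmrn1-low and 4673 to 4966 CPM in Mmrn1-high libraries. Their part in the Cxcr2 difference was not tested.

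Ccr2 draws monocytes and some progenitors out of the marrow toward CCL2. Ccr2 (ENSMUSG00000049103, chr9:124101950-124113557, plus strand) was at 94.5, 73.9 and 69.9 CPM in the Mmrn1-low and at 67.2, 84.4 and 98.4 CPM in the Mmrn1-high libraries. Each group spanned nearly the whole range of the other. The means were 79.4 ± 13.2 CPM (Mmrn1-low) and 83.4 ± 15.6 CPM (Mmrn1-high; SD, n = 3). This was a log2 fold change of 0.07 ± 0.19 SE (edgeR adjusted p = 0.764). The direction was not stable. Without Mmrn1-high replicate 3 the log2 fold change was −0.06 and without Mmrn1-low replicate 3 it was −0.01, and leaving out each library in turn gave −0.06 to 0.22.

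The spread of Ccr2 was wide for its level. Its coefficient of variation (CV, the SD as a percentage of the mean) was 16.6% in Mmrn1-low cells, where genes within 2-fold of its level had a median of 3.87%, and 93.7% of those 4423 genes varied less. In Mmrn1-high cells its CV was 18.7% against a median of 3.58%, and 94.8% of 4396 genes varied less. The summed monocyte markers, led by F13a1, Ly6c2 and Irf8, were at 1184, 1171 and 1056 CPM in Mmrn1-low replicates 1 to 3 and at 723, 815 and 726 CPM in Mmrn1-high replicates 1 to 3. Irf8 alone was at 137, 137 and 67.5 CPM in Mmrn1-low and at 105, 200 and 99.4 CPM in Mmrn1-high replicates 1 to 3. In Mmrn1-high cells, much of the difference in the sum between libraries was thus that of Irf8. In Mmrn1-low cells Ly6c2 was also lowest in replicate 3, at 457, 448 and 390 CPM in replicates 1 to 3. Of the 10 monocyte markers, 4 were called higher and 4 lower. Their part in the spread of Ccr2 was not tested.

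**Figure D2:**
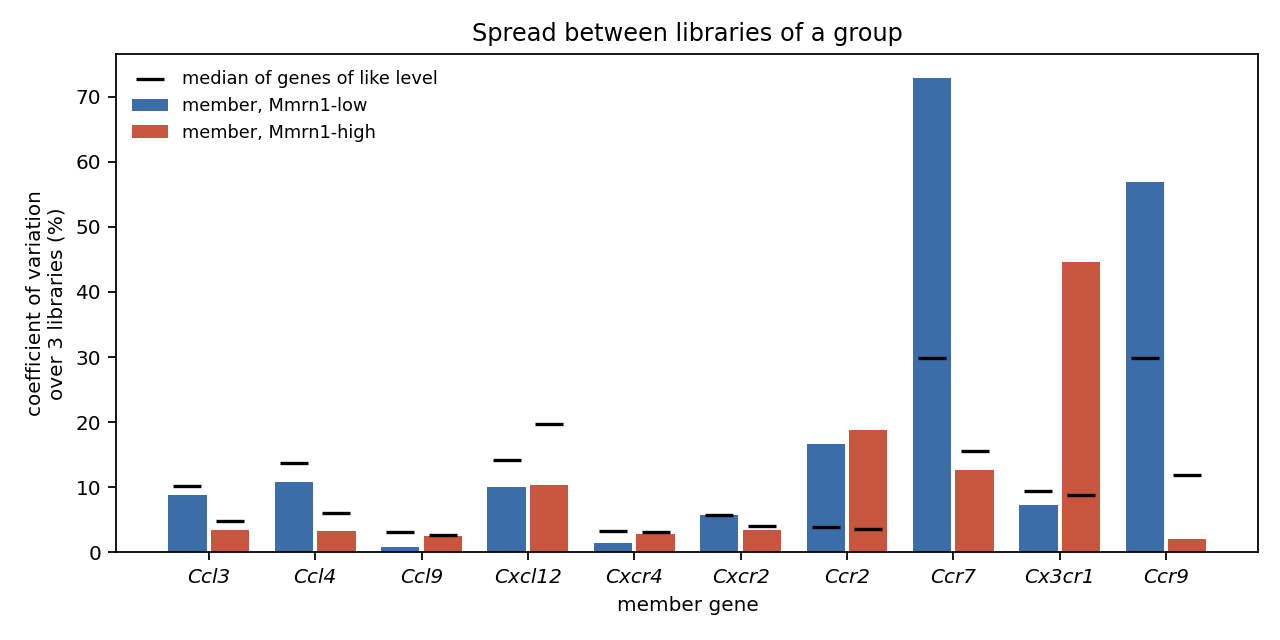
Coefficient of variation over the 3 libraries of each group, in percent, for the 10 members. Bars are blue for Mmrn1-low and red for Mmrn1-high, and the black dash is the median over genes within 2-fold of the member's level in that group. Ccr2 stands above its dash in both groups (16.6% and 18.7%) and Cx3cr1 in Mmrn1-high cells (44.6%), and the bars of Ccr7 and Ccr9 are tall in Mmrn1-low cells (72.9% and 56.8%), where both are near the limit of detection.

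Cx3cr1, the receptor of fractalkine on monocytes and macrophages, had no stable direction either. Cx3cr1 (ENSMUSG00000052336, chr9:119901616-120069879, minus strand) was at 7.81, 7.08 and 8.19 CPM in the Mmrn1-low and at 10.7, 3.95 and 8.91 CPM in the Mmrn1-high libraries. Mmrn1-high replicate 2 was the lowest of all 6 libraries, and the other Mmrn1-high libraries were above every Mmrn1-low library. The means were 7.69 ± 0.561 CPM (Mmrn1-low) and 7.85 ± 3.50 CPM (Mmrn1-high; SD, n = 3). On the log2 scale the change was −0.03 ± 0.38 SE (edgeR adjusted p = 0.948). Without Mmrn1-high replicate 2 the log2 fold change was 0.36 and the adjusted p was 0.0531. Its CV in Mmrn1-high cells, 44.6%, exceeded that of 97.8% of 2985 genes of like level, whose median was 8.77%. That library did not stand apart in general: 70 of 14373 genes were at least 2-fold below both other libraries of its group, and each of the other 5 libraries had 81 to 90 such genes in its own group.

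Ccr7 and Ccr9 guide lymphoid cells, CCR7 toward CCL19 and CCL21 in lymph nodes and CCR9 toward CCL25 in thymus and gut. Ccr7 (ENSMUSG00000037944, chr11:99144196-99155077, minus strand) was at 0.888, 0.221 and 0.348 CPM in the Mmrn1-low and at 2.37, 2.34 and 1.88 CPM in the Mmrn1-high libraries. These are 14, 3 and 10 reads against 29, 76 and 28 reads. The groups did not overlap, though Mmrn1-low replicate 1 was above the other libraries of its group. The mean rose from 0.486 ± 0.354 to 2.20 ± 0.278 CPM (SD, n = 3), 4.63-fold higher. The log2 fold change was 2.21 ± 0.38 SE (edgeR adjusted p = 0.00122). Leaving out each library in turn gave 1.93 to 2.84, with the lowest value without Mmrn1-low replicate 3 and the highest without Mmrn1-low replicate 1.

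Ccr9 (ENSMUSG00000029530, chr9:123678439-123784330, plus strand) was at 0.190, 0.516 and 0.732 CPM in the Mmrn1-low and at 3.92, 4.01 and 4.09 CPM in the Mmrn1-high libraries. The Mmrn1-low values rest on 3, 7 and 21 reads and the Mmrn1-high values on 48, 130 and 61 reads. The Mmrn1-high libraries were close to each other and above every Mmrn1-low library. The mean went from 0.480 ± 0.273 to 4.01 ± 0.0825 CPM (SD, n = 3), 7.61-fold higher. This was a log2 fold change of 2.93 ± 0.30 SE (edgeR adjusted p = 7.11e-05). Leaving out each library in turn gave 2.61 without Mmrn1-low replicate 1 to 3.53 without Mmrn1-low replicate 3. Both Ccr7 and Ccr9 were left out by the filter of 5 CPM and by the FPKM filter, so neither filter tests them. Of the 10260 exon bases of Ccr9, 2223 are shared with Slc6a20a, Gm17200 and AC165425.1. Reads there cannot be assigned to 1 gene, because the strand setting of the counting is not stated. For Cx3cr1, 78 exon bases are shared with Gm33858.

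Most tested markers of T, NK, B and dendritic cells moved with Ccr7 and Ccr9, and most of those of plasma cells did not. The background for the counts below is the 30.7% of all genes called higher and the 30.5% called lower. Trbc1, Clec9a and Vpreb1, counted as higher, passed the filter only through the Mmrn1-high libraries, so the filter favoured them for being high there. Of 7 T and NK cell markers tested, 6 were called higher and 0 lower, and the list, led by Lck, Il7r and Cd4, summed to 19.0 to 22.0 CPM in Mmrn1-low and 70.8 to 74.0 CPM in Mmrn1-high libraries. The defining genes Cd3d, Cd3e and Cd3g were too low to test, and their groups overlapped. Their means were 0.2595, 0.561 and 0.424 CPM in Mmrn1-low and 0.433, 0.516 and 0.454 CPM in Mmrn1-high cells. The T cell gene Cd8a was tested and not called (log2 fold change 0.04 ± 0.42 SE). Of 9 B cell markers tested, 8 were called higher and 0 lower, with summed levels of 35.9 to 37.4 and 55.0 to 55.7 CPM. Of 6 dendritic cell markers tested, 5 were called higher and 0 lower, with summed levels of 16.1 to 17.7 and 40.5 to 45.8 CPM. Of 6 plasma cell markers tested, 1 was called higher and 2 lower, and the list, led by Xbp1, Jchain and Sdc1, summed to 288 to 415 CPM in Mmrn1-low and 108 to 150.0 CPM in Mmrn1-high libraries. The part of these lists in the differences of Ccr7 and Ccr9 was not tested.

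Levels were compared between members per kilobase of exon. In Mmrn1-low cells the order was Cxcr4 (72.3 CPM per kilobase), Ccl9 (51.2), Ccr2 (11.8), Cxcr2 (8.68), Ccl3 (8.49), Ccl4 (4.83), Cx3cr1 (1.71), Cxcl12 (0.358), Ccr7 (0.246) and Ccr9 (0.0467). Neighbours in this order overlapped between libraries for Cxcr2 with Ccl3 and for Cxcl12 with Ccr7. In Mmrn1-high cells the order was Cxcr4 (75.4), Ccl9 (72.3), Ccl3 (47.8), Ccl4 (31.5), Cxcr2 (19.0), Ccr2 (12.3), Cx3cr1 (1.74), Ccr7 (1.11), Ccr9 (0.390) and Cxcl12 (0.133). There Cxcr4 overlapped with Ccl9 and Cx3cr1 with Ccr7. The ranks depend on the gene length used: by the authors' FPKM, Ccl3 ranked 3 in both groups, Ccl4 ranked 6 in Mmrn1-low and 4 in Mmrn1-high cells, and Cxcl12 ranked 9 and 10.

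The rest of the chemokine family was read from a fixed list. Of 35 other ligand genes, 10 were tested, 5 of them called higher, 2 lower and 3 not called, with a median log2 fold change of 0.29. Ccl2, the monocyte attractant, went from 0.644 ± 0.0652 to 1.97 ± 0.271 CPM (log2 fold change 1.59 ± 0.22 SE), and Cxcl2, a CXCR2 ligand, from 6.79 ± 0.439 to 15.5 ± 3.30 CPM (1.18 ± 0.16 SE; SD, n = 3). Ccl5 (1.04 ± 0.17 SE), Ccl27a (0.84 ± 0.18 SE) and Ccl6 were the other genes called higher. Ccl27a has 3 rows in the table, and its value is that of the row on chromosome 4. The genes called lower were Cxcl10, from 8.87 ± 0.331 to 3.57 ± 0.870 CPM (−1.36 ± 0.18 SE), and Cxcl9, from 0.895 ± 0.0758 to 0.363 ± 0.0739 CPM (−1.40 ± 0.30 SE), both interferon-induced ligands of CXCR3. Cxcl9 was not called by DESeq2 (adjusted p = 0.0617). The genes not called were Ccl25, Pf4 and Cxcl16. Ccl2 and Cxcl16 passed the filter only through the Mmrn1-high libraries and Cxcl9 only through the Mmrn1-low libraries.

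Of 18 other receptor genes, 9 were tested, 7 of them called higher and 2 lower, and the median log2 fold change was 1.02. Ccr1 and Ccrl2 reached the needed level in every library. Xcr1, Cxcr1, Ackr1 and Cxcr3 passed the filter only through the Mmrn1-high libraries and Ccr3 and Ccr10 only through the Mmrn1-low libraries, so the filter favoured these 6 for differing, and their count is a description only. All of these 6 were called, each toward the group it passed through. The same holds for Ccr7, Ccr9, Ccl2 and Cxcl9, and of the family genes passing in this way only Cxcl16 was not called. Ccr1, a receptor of CCL3 and CCL9 on myeloid cells, went from 11.0 ± 1.13 to 22.2 ± 1.04 CPM (SD, n = 3; log2 fold change 1.02 ± 0.09 SE, edgeR adjusted p = 3.11e-05). Cxcr1 (1.84 ± 0.29 SE), Xcr1 (1.96 ± 0.39 SE) and Ackr1, a scavenger of chemokines (1.55 ± 0.32 SE), were higher, as were Cxcr3 and Ccrl2. The call of Ccrl2 was not stable: it was lost with DESeq2 (adjusted p = 0.198), with the replicate block (0.0892), at a threshold of 0.01 and in 4 of the 6 fits that leave out 1 library (0.0702 to 0.137). Ccr3, the eotaxin receptor of eosinophils and basophils, went from 2.06 ± 0.319 to 0.302 ± 0.124 CPM (−2.70 ± 0.30 SE), and Ccr10, a receptor of plasma cells and skin T cells, from 2.07 ± 0.244 to 0.344 ± 0.0229 CPM (−2.53 ± 0.24 SE). The summed plasma cell markers, mostly Xbp1 and Jchain, were lower in the same libraries, but the list did not move one way. Xbp1 and Mzb1 were called lower, Sdc1 was called higher (1.17 ± 0.11 SE), and Jchain, Prdm1 and Irf4 were not called. The part of these markers in the Ccr10 difference was not tested.

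**Figure D3:**
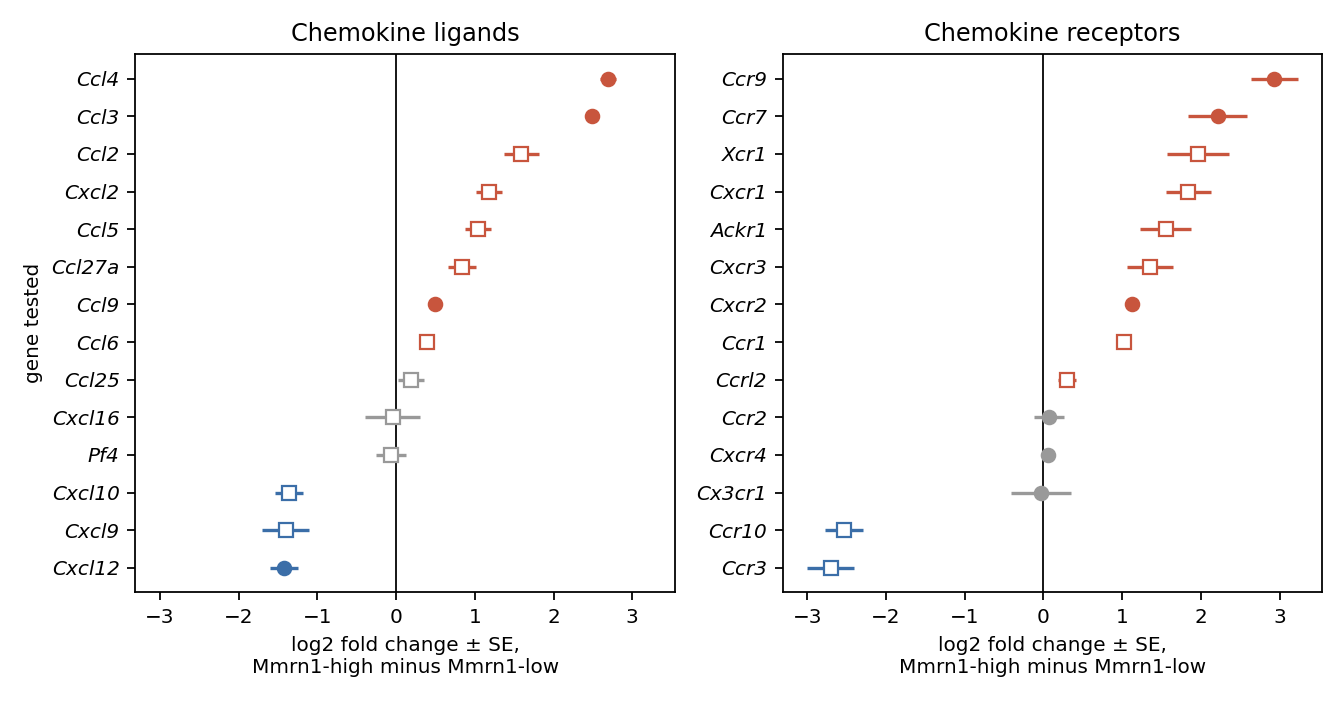
Log2 fold change of Mmrn1-high over Mmrn1-low cells, with the standard error as the bar, for tested chemokine ligands (left) and receptors (right). Filled circles are the 10 members and open squares the other family genes. Red is called higher, blue called lower and grey not called. Ccl4 (2.69) and Ccr9 (2.93) are the highest members, and Cxcl12 (−1.42) is the lowest.

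Set side by side, ligands and receptors that bind each other did not all change in the same direction. Ccl3, Ccl4 and Ccl9 were higher together with Ccr1. Cxcl2 was higher together with Cxcr2 and Cxcr1. Ccl2 was higher while Ccr2 was not called, and Cxcl12 was lower while Cxcr4 was not called. Cxcr3 was higher while its ligands Cxcl9 and Cxcl10 were lower. These pairs were picked after the values had been seen, and Cxcr1, Ccl2 and Cxcr3 passed the filter only through the Mmrn1-high libraries and Cxcl9 only through the Mmrn1-low libraries, so the pairs are a description and support nothing. The ligands of CCR7, Ccl19, Ccl21a and Ccl21b, had 0 counts in all 6 libraries, and 3 counts would be 0.0925 to 0.245 CPM. Each has further rows besides that on chromosome 4, also with 0 counts. How reads that match several copies were counted was not examined, so the 0 counts need not mean a level below that limit. The ligand of CCR9, Ccl25, was at 3.64 ± 0.445 and 4.03 ± 0.560 CPM (SD, n = 3; log2 fold change 0.19 ± 0.16 SE, edgeR adjusted p = 0.337). The ligand of CX3CR1, Cx3cl1, was too low to test.

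Of the genes that carry the receptors' signal, 23 of 24 were tested. At TMM scaling 4 were called higher and 14 lower (median log2 fold change −0.14), whereas with library size alone 8 were higher and 7 lower (median 0.01). Gng2, a G protein gamma subunit (1.13 ± 0.05 SE), and Prex1, an exchange factor for Rac that answers G protein subunits (0.78 ± 0.04 SE), were higher, as were Ptk2b and Plcb3. The lower genes with the smallest p were Rac2, the Rac of blood cells (−0.41 ± 0.03 SE), Plcb2, a phospholipase (−0.69 ± 0.05 SE), Gnai3, an inhibitory G protein alpha subunit (−0.51 ± 0.04 SE), and Apbb1ip, the integrin adaptor RIAM (−0.54 ± 0.05 SE).

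Of the genes that end or damp the signal, 17 of 18 were tested, 9 called higher and 3 lower, and the median log2 fold change was 0.12. Rgs1, which shortens the signal of chemokine receptors, went from 7.92 ± 1.02 to 67.5 ± 3.98 CPM (SD, n = 3; 3.08 ± 0.10 SE, edgeR adjusted p = 1.17e-07). Rgs2, of the same family, had a log2 fold change of 1.31 ± 0.04 SE. Dpp4, a surface protease that cleaves CXCL12, went from 26.7 ± 1.02 to 71.2 ± 0.988 CPM (1.41 ± 0.05 SE), and Grk3, a receptor kinase, had 0.51 ± 0.05 SE. The lower genes were Usp14 (−0.69 ± 0.03 SE), a deubiquitinase, Rgs14 (−0.24 ± 0.06 SE) and the receptor kinase Grk6 (−0.17 ± 0.04 SE). With library size alone 1 was lower instead of 3.

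Several members lie in gene clusters, and neighbours there did not all have the same direction. Within 200 kb of the start of Ccl3 on chromosome 11 there are 13 protein-coding genes, of which 11 were tested, 7 called higher, 3 lower and 1 not called. All 5 chemokine genes among them, Ccl3, Ccl4, Ccl5, Ccl6 and Ccl9, were called higher. Ccl4 starts 13.2 kb from Ccl3 and had a fold change close to it, whereas Ccl9 starts 70.7 kb from Ccl3 on the other side. Wfdc17 and Wfdc18, small whey acidic protein genes next to Ccl4, were higher, with means of 8.88 and 31.0 CPM for Wfdc17 in Mmrn1-low and Mmrn1-high cells. Wfdc21, of the same family, was lower (−1.03 ± 0.05 SE), as were Mmp28 and Taf15.

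Within 600 kb of the start of Ccr2 on chromosome 9 there are 16 protein-coding genes, of which 10 were tested, 7 called higher, 2 lower and 1 not called. Ccr1, Ccr3 and Ccr2 lie in that order: Ccr1 was higher, Ccr3 lower and Ccr2 not called. Ccr3 starts 80.0 kb before Ccr2. Ccr9 and Xcr1 lie farther off, and both were higher, as were the neighbours Lztfl1 and Fyco1.

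**Figure D4:**
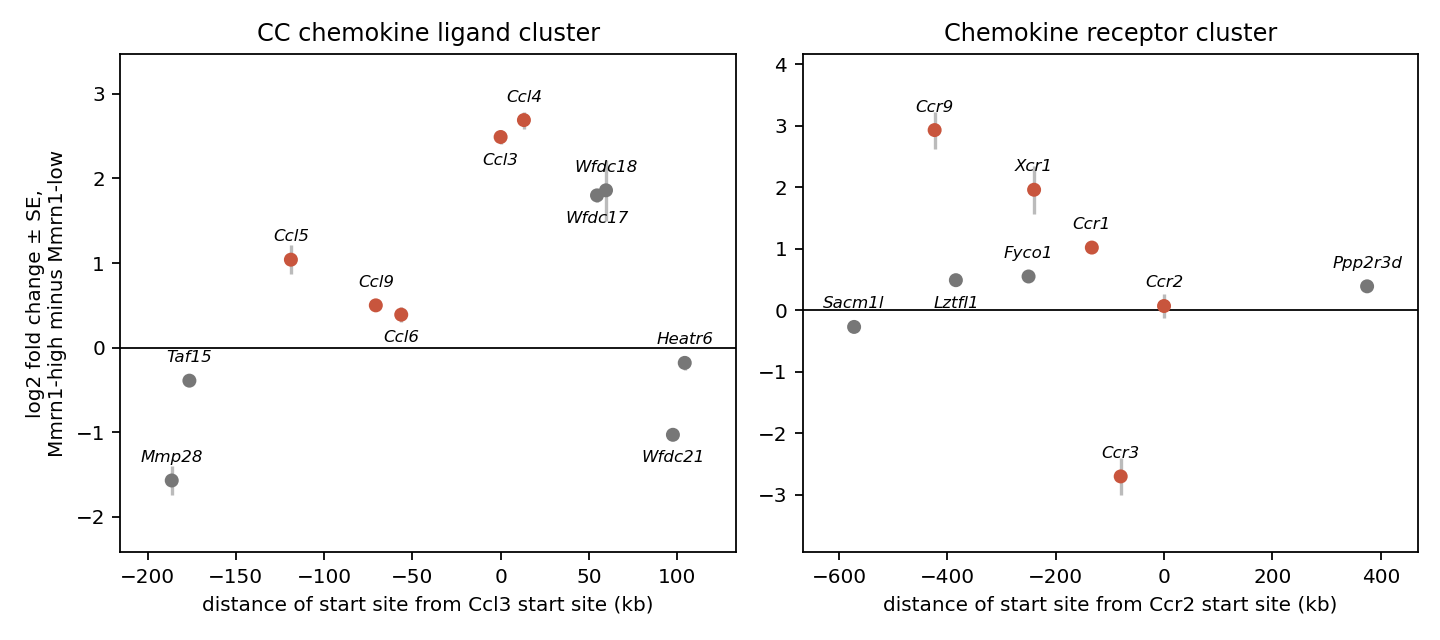
Log2 fold change of Mmrn1-high over Mmrn1-low cells, with the standard error as the bar, against distance in kb from the start site of Ccl3 (left) and of Ccr2 (right). Red points are chemokine ligand and receptor genes and grey points other protein-coding genes tested. In the left panel all 5 chemokine genes lie above 0, and in the right panel Ccr3 (−2.70) lies between Ccr1 (1.02) and Ccr2 (0.07).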

How the data were processed

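RNA was measured by poly-A selected, stranded, paired-end sequencing, per the labels' protocols. The authors' deposited table holds raw read counts per gene and FPKM values, per the file headers. Per the submitters' processing notes, the build was GRCm38 and the tools included CASAVA 1.8, HISAT2, StringTie and edgeR, whose roles are not stated. The sources used here do not give the strand setting. Counts were tested with edgeR 4.0.16 (quasi-likelihood F test, robust, TMM factors, filterByExpr, 15419 genes), with Benjamini-Hochberg adjustment over all genes tested and a call under 0.05. Positive log2 fold changes mean higher in Mmrn1-high cells, and the standard error (SE) is the change over the square root of F. Levels are TMM-scaled CPM, mean ± SD of 3 libraries, and levels per kilobase use the union of exons in GENCODE M21. Depth limits low genes, since 3 counts equal 0.0925 to 0.245 CPM.

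The pipeline was tested on simulated data. No library pair of a group differed by as little as counting noise (mean chi-square per gene 5.95 to 9.64). The median per gene was far lower, 0.779 to 1.085, so genes with large differences raised the mean. Alternatives changed the scaling (relative log expression, or library size alone), the filter (none, or at least 5 CPM in 3 libraries), the tool (DESeq2 1.42.0, or voom with quality weights in limma 3.58.1), the threshold (0.01) or the design (replicate number as a block, each library left out). FPKM was tested with limma-trend as log2(FPKM + 1), with and without a minimum of 1 FPKM in 3 libraries, and with a pseudocount of 0.1. The authors' gene length in place of the exon union was added after seeing the data. Named were all members, up to 5 genes per direction of the lists of other ligands and receptors, up to 4 of the signalling lists and up to 3 of each marker list, and 5 genes most like Ccl3 and Cxcr4, while genes named outside the rule were chosen after their values were seen. The members, lists and tests were chosen with earlier results of these data known. Some genes that this rule takes are left out of the text and figures.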

Additional observations from a re-analysis of the deposited data

How the results depend on the processing

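The number of members called higher was 5 to 7 under every alternative run, against 6. The 5 CPM filter and both filtered FPKM fits do not test Cxcl12, Ccr7 and Ccr9. There 0 members were called lower, against 1, and those called higher were Ccl3, Ccl4, Ccl9, Cxcr2 and Cxcr4. Cxcr4, not called at TMM scaling, was called with the 5 CPM filter (log2 fold change 0.11), library size alone (0.21), log2(FPKM + 0.1) (0.21), log2(FPKM + 1) (0.20) and unfiltered FPKM (0.20), which carry no TMM correction except for the 5 CPM filter. The cause was not tested there. For Ccr2, leaving out each library gave −0.06 to 0.22. For Cx3cr1 it gave −0.31 to 0.36, and the sign also turned with the 5 CPM filter (0.01), library size alone (0.11), log2(FPKM + 0.1) (0.07) and log2(FPKM + 1) with and without the filter (0.06 each). Pf4, uncalled at −0.06, was at 0.09 with library size alone, 0.06 with log2(FPKM + 0.1), 0.04 with both log2(FPKM + 1) fits and −0.19 to 0.04 without 1 library. Cxcl16, uncalled at −0.04, was at 0.11 with library size alone, 0.07 with voom, 0.02 with unfiltered FPKM, 0.05 with the replicate block and −0.24 to 0.33 without 1 library. Stricter filters test fewer genes: other ligands called higher were 2 with 5 CPM and 3 with filtered FPKM, against 5, and called lower were 1 in each and with DESeq2, against 2. Other receptors called higher were 2 in each, against 7, and lower 0 with 5 CPM and 1 with filtered FPKM, against 2. Signal transmission genes called higher were 8 with library size alone and 7 with filtered FPKM, against 4, and lower 7 in each, 6 with unfiltered FPKM and 9 at an adjusted p under 0.01, against 14. Termination genes called lower were 1 with library size alone and every FPKM fit, against 3. The cause of these was not tested. Unfiltered FPKM gave a log2 fold change of 0.22 for Ccr9, 0.82 for Ccr7 and −0.16 for Cxcl12. The pseudocount of 1 exceeds the mean FPKM of Ccr9 and Cxcl12 in both groups. It exceeds that of Ccr7 in Mmrn1-low cells (0.233) but not in Mmrn1-high cells (1.17). Over all genes tested, unfiltered FPKM called 5870 higher and 3020 lower, and both filtered fits 3011 to 3019 lower. Of 161 values of members under alternatives, 147 kept direction and call. Same-numbered libraries of both groups did not deviate together (correlations of 0.043, −0.079 and 0.029), and unlike-numbered libraries had −0.093 to 0.072. With 3 libraries per group this cannot exclude that the numbers pair the samples. The replicate block gave 6 members higher and 1 lower, and 4476 genes higher and 4447 lower among all tested.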

Other observations

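The genes with profiles most like that of Ccl3 over the 6 libraries were Dntt, the terminal transferase of early lymphoid cells (distance 0.171), Gimap6, a lymphocyte GTPase (0.275), Socs3, a feedback inhibitor of cytokine signals (0.299), Ctla2a, a protease inhibitor (0.383), and Fosb, an immediate early gene (0.397). The measure was the Euclidean distance between log2 CPM profiles centred on their own mean, among 7235 genes at or above the median level. All 5 had log2 fold changes between 2.23 and 2.62, which follows from the measure, since it picks genes with a like difference between the groups. Among the genes most like Cxcr4 were Slc30a9, Rpl14-ps1, Herpud2 and Scarb2, at distances of 0.0306 to 0.0453. These 4 were nearly flat, with log2 fold changes of 0.05 to 0.08, which follows from the measure in the same way.

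The order of members depends on the gene length used. The length implied by the authors' FPKM matched the sum of all distinct exons, counting bases shared by overlapping exons more than once, to within 0.1% for 8167 of 8362 genes (97.7%) with at least 200 counts in every library. Of the 7299 of these genes with overlapping exons, 3 matched the union of exons. The authors' length was a median of 1.36 times the union. For Ccl3, Ccl4 and Ccr7 it equalled the union, and for Ccr2 it was 2.13 and for Ccr9 2.21 times as long. By the authors' FPKM, Ccl9 ranked above Cxcr4 in both groups, and per kilobase of the exon union Cxcr4 ranked above Ccl9. In Mmrn1-low cells Ccl3 ranked 3, above Ccr2 and Cxcr2, by the authors' FPKM and 5, below both, by the exon union. Fold changes between the groups are not affected, since the length is the same in every library.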
